A study of Arabidopsis thaliana with 6 samples.

Results

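Glutathione S-transferases (GSTs) of the tau and phi classes are the large plant-specific branches of a detoxifying enzyme family. The genes described here are 27 tau genes (GSTU1 to GSTU28 without GSTU20) and 11 phi genes (GSTF2 to GSTF10, GSTF13 and GSTF14), together 38 of the 33602 Arabidopsis thaliana loci counted. They were selected on earlier results of this same contrast, in which many GST genes were higher in the mutant, so their differences between genotypes are given as a description and support nothing by themselves. GSTU20, GSTF11 and GSTF12 belong to the same classes but lie outside the selection.

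A GST joins the tripeptide glutathione to a reactive or foreign molecule, which makes the molecule more soluble and lets vacuolar ABCC transporters carry the conjugate out of the cytosol. Tau and phi enzymes act on herbicides and other electrophiles, and some bind or carry small molecules such as flavonoids and auxins without modifying them. Many of the genes are switched on by wounding, oxidants, hormones, herbicide safeners or pathogens, in part through TGA bZIP factors that bind promoters at as-1 elements.

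RNA came from aerial parts of seedlings aged 11 days, grown at about 22 °C with 16 h of light and 8 h of darkness a day, and harvested at ZT5, meaning 5 h after lights on. Wild type was the ecotype Col-0 (3 biological replicates), and the other group was the snl1/2/3/4/5 quintuple mutant (3 biological replicates), which carries mutations in SNL1, SNL2, SNL3, SNL4 and SNL5. These SIN3-LIKE genes encode scaffold proteins of histone deacetylase complexes, which remove acetyl groups from histones, and the series as a whole concerns their action on flowering. The labels name no allele, and give neither the number of plants pooled in a sample nor whether more than 1 line of the mutant was used.

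Libraries held between 12622416 and 15774357 counted reads. Levels are in CPM, which are reads scaled to a common library size. All 5 mutated genes were lower in every mutant library than in any Col-0 library. Mutant replicate 3 kept more SNL2 transcript (7.57 CPM) than mutant replicates 1 and 2 (2.32 and 2.64 CPM). The same held for SNL1 (26.4 beside 20.7 and 19), SNL3 (7.04 beside 2.55 and 2.02) and SNL4 (14.8 beside 8.51 and 7.43 CPM). Mutant means of SNL1 and SNL5 were 22.1 and 25.9 CPM, beside 63 and 49 CPM in Col-0. Markers of green tissue were abundant in both groups (9 genes, summed 46648 to 52231 CPM in Col-0 and 45499 to 56613 CPM in the mutant). Root markers were also present although the labels give aerial tissue, with none at 0 in all libraries. The 14 genes summed to 98.6 to 105 CPM in Col-0 and 104 to 141 CPM in the mutant, highest in mutant replicate 1. Of the 13 tested, 3 (23.1%) were called higher and 0 lower, beside 18.3% and 16.5% of all tested genes. Log2 fold changes were positive for 8 of the 13. IRT1 went from a mean of 10.6 to 19.9 CPM, while RHD6 was lower in every mutant library and not called. The 6 floral organ markers summed to 7.8 to 8.73 CPM in Col-0 and 21 to 35.3 CPM in the mutant. Of these, PI went from a mean of 2.8 to 17.5 CPM, and SEP3 (5.31 and 6.86 CPM) was not called. AP3, AG and SEP1 were too low to test. AP1 was too, with no read in any Col-0 library and 1 read in mutant replicate 1. The 4 seed markers, all too low to test, summed to 0 to 0.132 CPM in Col-0 and 0.382 to 1.57 CPM in the mutant. OLEO1 was at 0 in all 6 libraries. The part of these markers in the GST values was not tested.

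The 38 genes sit on all 5 chromosomes, with 22 on chromosome 1 and 11 on chromosome 2, and 28 of them stand in 9 tandem arrays, here runs of members at most 10 loci apart. The longest array holds GSTU1 to GSTU7 on chromosome 2. All 27 tau genes have 2 coding exons, while 8 of the 11 phi genes have 3. Within the tau class the median identity between 2 proteins was 42.3% over 351 pairs, within the phi class it was 45% over 55 pairs, and between the classes it was 28.2%.

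The 250 bases before the annotated start are shown for members with at least a 2-fold higher level in the mutant whose window is free of any other gene. Sequences were read from the RefSeq genome of TAIR10.1 and run 5′ to 3′ on the gene's strand. Capitals mark TGACG on either strand, the core of the as-1 element, and CACGTG, the G-box.
GSTU27, chr3:15660520-15660769, plus strand: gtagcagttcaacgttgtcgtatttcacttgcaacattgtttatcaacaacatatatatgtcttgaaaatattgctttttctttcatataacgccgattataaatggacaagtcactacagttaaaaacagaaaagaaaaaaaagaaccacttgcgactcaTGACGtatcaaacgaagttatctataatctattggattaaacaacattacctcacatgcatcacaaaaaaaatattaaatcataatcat
GSTU22, chr1:29474004-29474253, minus strand: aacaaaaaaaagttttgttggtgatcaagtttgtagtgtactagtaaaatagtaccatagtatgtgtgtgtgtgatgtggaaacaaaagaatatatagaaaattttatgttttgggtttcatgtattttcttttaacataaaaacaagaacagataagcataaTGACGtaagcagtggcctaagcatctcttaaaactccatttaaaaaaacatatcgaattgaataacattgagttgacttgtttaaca
GSTU6, chr2:12621232-12621481, minus strand: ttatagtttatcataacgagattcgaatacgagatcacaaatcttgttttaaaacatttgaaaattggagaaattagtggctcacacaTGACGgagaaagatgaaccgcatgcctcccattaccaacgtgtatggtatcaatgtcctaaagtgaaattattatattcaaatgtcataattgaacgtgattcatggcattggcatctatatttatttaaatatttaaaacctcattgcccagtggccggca
GSTU17, chr1:3398359-3398608, minus strand: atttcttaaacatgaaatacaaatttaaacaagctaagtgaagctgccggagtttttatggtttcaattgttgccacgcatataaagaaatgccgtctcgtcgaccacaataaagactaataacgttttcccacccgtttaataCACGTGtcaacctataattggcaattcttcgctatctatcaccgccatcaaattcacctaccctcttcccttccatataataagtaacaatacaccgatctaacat
GSTU4, chr2:12627892-12628141, minus strand: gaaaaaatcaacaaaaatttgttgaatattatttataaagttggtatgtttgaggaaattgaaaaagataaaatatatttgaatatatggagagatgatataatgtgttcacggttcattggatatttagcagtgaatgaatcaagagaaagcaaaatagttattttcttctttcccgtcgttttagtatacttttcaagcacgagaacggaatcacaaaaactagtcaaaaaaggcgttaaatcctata
GSTF9, chr2:13138632-13138881, plus strand: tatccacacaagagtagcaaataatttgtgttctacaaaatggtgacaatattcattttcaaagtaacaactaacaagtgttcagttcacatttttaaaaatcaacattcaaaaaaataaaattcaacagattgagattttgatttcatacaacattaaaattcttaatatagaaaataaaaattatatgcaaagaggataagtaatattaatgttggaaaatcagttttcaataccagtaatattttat
GSTU27, GSTU22 and GSTU6 each hold 1 TGACG, which ends 85, 83 and 158 bases before the start. GSTU17 holds 1 CACGTG, and the windows of GSTU4 and GSTF9 hold neither set of letters.

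Searched on both strands, TGACG lay in the 250-base window of 11 of 27 tau genes (40.7%) and 3 of 11 phi genes (27.3%), beside 18.6% of 27443 protein-coding genes. Among tau genes the share was 5 of 11 for those called higher in the mutant and 6 of 16 for the rest. GSTU7, which was not called, held 3 matches. Its TGACGTCA, which reads the same on both strands, was counted on each strand, and its window overlaps another annotated gene. TTGAC, the core of the W-box, which can overlap TGACG in the letters TGAC, was found in 16 tau and 6 phi windows (59.3% and 54.5%, beside 44.9% of all genes). CACGTG was found in 2 tau windows and 1 phi window (7.41% and 9.09%, beside 6.49%). The windows are not independent pieces of sequence where genes share an array, and a match is a description of letters, not a bound site.

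Windows were compared for shared stretches only among members called higher in the mutant. The 2 pairs with the longest runs were chosen after this comparison, and the next longest run was 12 bases. GSTU22 and GSTU24, which lie in different arrays on chromosome 1, share a run of 15 bases, and so do the neighbours GSTF6 and GSTF7. Each run occurs in no other of the 27443 windows. The 30 bases around each run are shown with the shared run in capitals.
GSTU22, chr1:29474063-29474092, minus strand: aatgacgtaaGCAGTGGCCTAAGCAtctct
GSTU24, chr1:5869372-5869401, plus strand: gctgacgcagGCAGTGGCCTAAGCAactaa
GSTF6, chr1:662579-662608, minus strand: cacgtggaccCAACAACGTCGGTCAgagtt
GSTF7, chr1:660034-660063, minus strand: catatgttttCAACAACGTCGGTCAacttt
In GSTU22 and in GSTU24 the letters TGACG come shortly before the shared run. The GSTU24 stretch falls in the annotated neighbour AT1G17160, and the runs of the 2 genes end 65 and 147 bases before their starts. All 4 of these genes were higher in the mutant, which was set in advance because only genes called higher were compared.

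A gene counts as called here when its adjusted p was below 0.05 in edgeR's quasi-likelihood test fitted to all 19591 genes that passed a filter on low counts. In the tau class 22 of the 27 genes passed the filter, 11 were called higher in the mutant and 0 lower (also 0 lower at an unadjusted p below 0.05, and 0 by DESeq2 or limma-voom). In the phi class 10 of the 11 genes passed, 5 were called higher and 0 lower (0 at an unadjusted p below 0.05, by DESeq2 or by limma-voom). Of all tested genes, 18.3% were called higher and 16.5% lower, and nothing is read from the members' counts against these shares because the genes were selected on this contrast. The median log2 fold change (mutant over Col-0) was 0.55 over the 22 tested tau genes and 0.59 over the 10 tested phi genes, beside 0.00 over all tested genes. Fewer cells of a type and less RNA per cell cannot be told apart in such bulk samples.

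**Figure D1:**
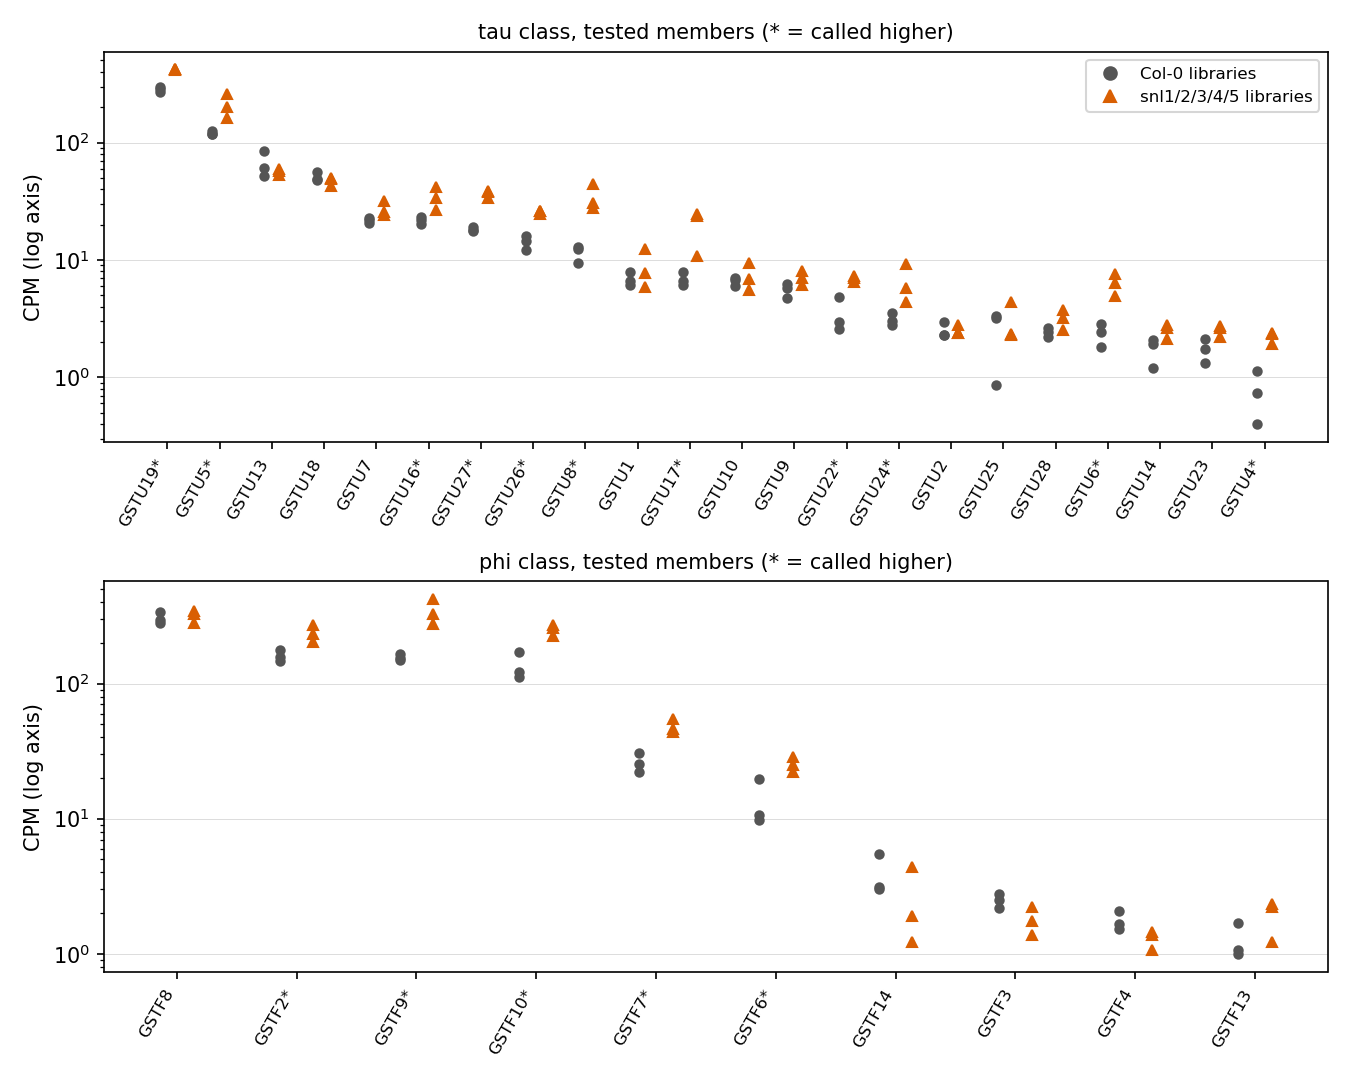
Level of each tested member in every library, in CPM on a log axis, tau class above and phi class below, ordered by mean Col-0 level. Circles are the 3 Col-0 libraries, triangles the 3 snl1/2/3/4/5 libraries, and a star marks the 11 tau and 5 phi genes called higher. The triangles of the starred genes all lie above the circles of the same gene.

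Summed over the class, the 27 tau genes held 628, 660 and 680 CPM in Col-0 and 931, 963 and 1009 CPM in the mutant, 1.47 times as much. The 11 phi genes held 745, 774 and 894 CPM in Col-0 and 1303, 1240 and 1133 CPM in the mutant, 1.52 times as much. The groups did not overlap in either class. A few genes made up most of these sums. GSTU19 alone gave 43.3% of tau CPM in each group, and GSTF8, GSTF2, GSTF9 and GSTF10 gave 93.9% of phi CPM in Col-0 and 93.4% in the mutant. The share of GSTF8 within the phi class was 37.8% in Col-0 and 25.8% in the mutant.

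**Figure D2:**
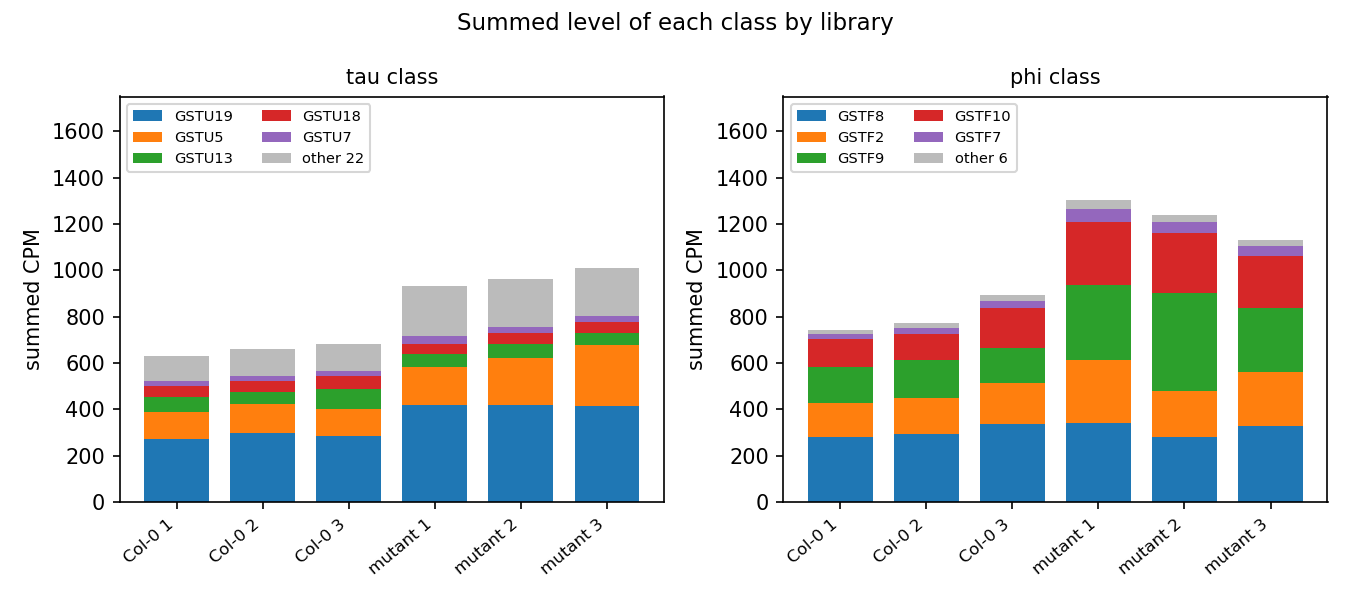
Summed CPM of the tau class (left) and the phi class (right) in each library, stacked by the 5 members with the highest Col-0 CPM and the rest in grey. Tau sums run from 628 to 680 CPM in Col-0 and from 931 to 1009 CPM in the mutant, and the GSTF8 segment lies between 279 and 342 CPM in all 6 libraries.

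Per kb of exon, the highest tau level in Col-0 belonged to GSTU19 (AT1G78380), a safener-inducible enzyme that acts on herbicides. It stood at 272, 297 and 284 CPM in Col-0 replicates 1 to 3 and at 421, 420 and 416 CPM in the mutant. The mutant libraries were nearly equal to each other and all above wild type. The difference was 1.48-fold (log2 fold change 0.56 ± 0.07 SE, adjusted p = 0.000854), the smallest fold among the 11 called tau genes at the highest level of the class, 254 ± 11.4 CPM per kb in Col-0 and 374 ± 2.76 CPM per kb in the mutant (SD, n = 3). GSTU5 (AT2G29450), an auxin-inducible gene, came second at 95.3 ± 3.56 CPM per kb in Col-0. Its libraries read 119, 126 and 118 CPM in Col-0 and 162, 202 and 261 CPM in the mutant, 1.72-fold higher (adjusted p = 0.00577), and mutant replicate 3 was the highest. GSTU13 (AT1G27130), an enzyme of indole glucosinolate metabolism, came next at 51.1 ± 13.5 CPM per kb and was not called. Its CPM values of 60.7, 51.4 and 85 in Col-0 and 57.7, 59 and 52.9 in the mutant overlapped (log2 fold change -0.21 ± 0.16 SE, adjusted p = 0.335). GSTU13 and GSTU18 (50.1 ± 4.13 CPM per kb) did not differ in level beyond their spread in Col-0.

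7 tau genes were called and at least 2-fold higher, a size that 3.93% of all tested genes reached in this direction. GSTU8 (AT3G09270) had 9.39, 13 and 12.5 CPM in Col-0 and 44.3, 30.4 and 27.9 CPM in the mutant, so that even the lowest mutant library lay far above the highest wild-type one. It was 2.94-fold higher (log2 fold change 1.56 ± 0.19 SE, adjusted p = 0.000987). GSTU27 (AT3G43800) was the most even of these genes, with 18.9, 17.9 and 17.8 CPM in Col-0 and 38.5, 38.1 and 33.5 CPM in the mutant. Its 2.01-fold difference had the lowest adjusted p among all members, 0.000224.

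GSTU17 (AT1G10370), an enzyme implicated in light and abscisic acid signalling, read 6.08, 6.68 and 7.97 CPM in Col-0 and 10.7, 23.8 and 24.6 CPM in the mutant. Mutant replicate 1 lay well below the other mutant libraries but still above wild type, and the fitted difference was 2.87-fold (log2 fold change 1.52 ± 0.29 SE, adjusted p = 0.00578). GSTU4 (AT2G29460) was a low gene, with 6, 11 and 15 reads in Col-0 and 31, 37 and 25 reads in the mutant. These reads correspond to 0.397, 0.742 and 1.14 CPM and to 2.4, 2.33 and 1.91 CPM, a 2.95-fold difference (adjusted p = 0.0086). Wild-type replicates of GSTU4 thus differed among themselves nearly as much as the groups did.

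GSTU6 (AT2G29440) read 2.45, 2.83 and 1.82 CPM in Col-0 and 6.35, 7.62 and 4.97 CPM in the mutant, 2.66-fold higher with no overlap (adjusted p = 0.00258). GSTU22 (AT1G78340) read 2.58, 4.79 and 2.96 CPM in Col-0 and 7.35, 6.55 and 7.04 CPM in the mutant, 2.02-fold higher (adjusted p = 0.00943). Here Col-0 replicate 2 was the outlying value and the mutant libraries were close together. GSTU24 (AT1G17170), whose product detoxifies the explosive TNT, read 3.04, 3.51 and 2.81 CPM in Col-0 and 9.21, 4.41 and 5.74 CPM in the mutant. Its 2.05-fold difference had an adjusted p of 0.0205, which became 0.0693 without Col-0 replicate 1 and 0.0614 without Col-0 replicate 3. The highest mutant value of GSTU24 came from replicate 1.

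GSTU16 and GSTU26 were the remaining called tau genes. GSTU26 (AT1G17190), inducible by chloroacetanilide herbicides, was 1.81-fold higher (14.1 ± 1.95 CPM in Col-0 and 25.6 ± 0.994 CPM in the mutant, SD, n = 3), and GSTU16 (AT1G59700) was 1.57-fold higher (21.6 ± 1.46 and 34.1 ± 7.42 CPM).

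Among all tested genes, 25.2% had every mutant library above every Col-0 library and 24.6% had every one below. Groups of 14 tau genes did not overlap, always with the mutant higher, and 3 of these were not called. GSTU7 read 20.7, 22.6 and 22 CPM in Col-0 and 31.8, 24.2 and 25.6 CPM in the mutant (1.25-fold, adjusted p = 0.0565, and 0.047 without mutant replicate 2). GSTU14 read 1.92, 2.09 and 1.21 CPM in Col-0 and 2.79, 2.64 and 2.14 CPM in the mutant (adjusted p = 0.131). GSTU23 read 1.32, 1.75 and 2.12 CPM in Col-0 and 2.63, 2.2 and 2.75 CPM in the mutant (adjusted p = 0.101). In GSTU14 and GSTU23, both low genes, the gap between the nearest libraries of the groups was small against the spread within them.

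The groups overlapped in the other 8 tested tau genes, GSTU1, GSTU2, GSTU9, GSTU10, GSTU13, GSTU18, GSTU25 and GSTU28, whose log2 fold changes lay between -0.21 and 0.37. GSTU25, another enzyme that acts on TNT, had the widest spread between replicates of the class, a biological coefficient of variation of 37.2%, and Col-0 replicate 1 stood low at 0.86 CPM beside 3.3 and 3.19 CPM. GSTU3, GSTU11, GSTU12, GSTU15 and GSTU21 were too low to test, with 2, 5, 14, 3 and 16 reads over all 6 libraries.

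In the phi class GSTF8, GSTF9 and GSTF10 had the highest levels per kb in Col-0, at 127 ± 12.7, 127 ± 6.11 and 119 ± 27.1 CPM per kb (SD, n = 3), and GSTF2 followed at 109 ± 10.6 CPM per kb. Neighbours in this order did not differ beyond their spread. In the mutant the order was GSTF9 (276 ± 59.7), GSTF10 (222 ± 21.5), GSTF2 (160 ± 23.7) and GSTF8 (132 ± 13.7 CPM per kb).

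GSTF9 (AT2G30860) read 155, 164 and 150 CPM in Col-0 and 325, 421 and 276 CPM in the mutant. All mutant libraries were far above wild type, though they differed among themselves, and the difference was 2.18-fold (log2 fold change 1.13 ± 0.14 SE, adjusted p = 0.000987). It was the only phi gene of the selection at or above 2-fold. GSTF10 (AT2G30870), also known as the dehydration-responsive gene ERD13, read 122, 112 and 170 CPM in Col-0 and 271, 259 and 225 CPM in the mutant, 1.87-fold higher (adjusted p = 0.00319). Col-0 replicate 3 was the high wild-type value and mutant replicate 3 the low mutant value, and the groups did not overlap.

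GSTF8 (AT2G47730), a gene widely used as a marker of the early response to oxidative stress, read 280, 293 and 338 CPM in Col-0 and 342, 279 and 328 CPM in the mutant. The groups overlapped throughout (log2 fold change 0.06 ± 0.10 SE, adjusted p = 0.685). GSTF8 was the most abundant phi transcript by CPM in Col-0 (304 CPM on average), while in the mutant GSTF9 (341 CPM) stood above it (316 CPM).

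GSTF2 (AT4G02520), which binds indole compounds such as camalexin, was 1.46-fold higher (161 ± 15.6 and 235 ± 34.8 CPM, adjusted p = 0.00871). GSTF7 (AT1G02920) was 1.85-fold higher (26 ± 4.27 and 48.1 ± 5.59 CPM, adjusted p = 0.00187). GSTF6 (AT1G02930), which conjugates glutathione in camalexin synthesis, was 1.91-fold higher, from 9.79, 10.7 and 19.7 CPM in Col-0 to 28.8, 25.1 and 22.3 CPM in the mutant. Col-0 replicate 3 of GSTF6 came close to the mutant range, and its adjusted p of 0.018 became 0.0673 without Col-0 replicate 1, 0.0582 without Col-0 replicate 2 and 0.058 without mutant replicate 2.

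GSTF4 was the only member with every mutant library below every Col-0 library, at 1.52, 2.09 and 1.67 CPM in Col-0 and 1.39, 1.45 and 1.07 CPM in the mutant, and it was not called (adjusted p = 0.204). GSTF3, GSTF13 and GSTF14 overlapped between groups, with log2 fold changes of -0.48, 0.63 and -0.64. GSTF14 read 3.04, 5.46 and 3.11 CPM in Col-0 and 4.41, 1.89 and 1.22 CPM in the mutant. Without mutant replicate 1 it was called lower (adjusted p = 0.0275), and without mutant replicate 3 GSTF13 was called higher (adjusted p = 0.0475). GSTF5 had 20 reads over all 6 libraries and was not tested.

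Which mutant library was highest or lowest differed between called genes. In both classes mutant replicate 1 was most often the highest and mutant replicate 3 most often the lowest. Among the 5 called phi genes, mutant replicate 1 was the highest mutant library for 4 and mutant replicate 3 the lowest for 4. Among the 11 called tau genes, mutant replicate 1 was highest for 6 and lowest for 4, and replicate 3 was highest for 3 and lowest for 5. GSTU5 and GSTU16 stood at 134% and 123% of the Col-0 mean in mutant replicate 1 and at 215% and 192% in replicate 3, while GSTU8 and GSTU24 went from 381% and 295% to 240% and 184%. Mutant replicate 1 also had the highest sum of root markers. With that library left out, all 16 called members were still called, and so they were without mutant replicate 3. The members were selected on this same contrast, so these fits do not bear on root tissue or remaining SNL transcript. The part of either in the GST values was not tested. Deviations from the group mean were most alike for GSTU24 and GSTU1 (Pearson r = 0.98 of log2 CPM over 6 libraries), a description over libraries that all genes share.

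**Figure D3:**
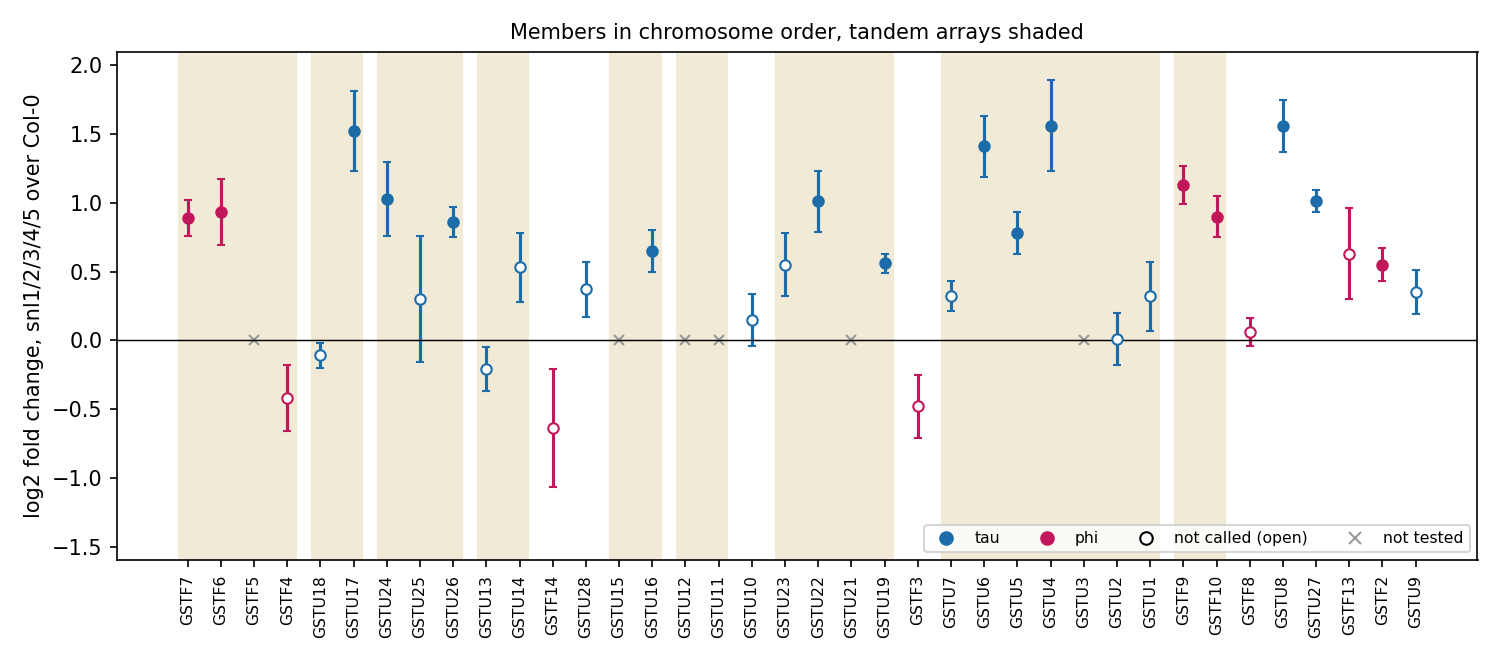
Fitted log2 fold change (mutant over Col-0) with its standard error for each tested member, in chromosome order, with tandem arrays shaded. Filled points were called higher, open points were not called and crosses were not tested. Called and uncalled genes stand side by side within arrays, as for GSTU17 (1.52) and GSTU18 (-0.11).

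Called and uncalled genes stood in the same arrays. In the 7-gene array on chromosome 2, GSTU4, GSTU5 and GSTU6 were called, GSTU1, GSTU2 and GSTU7 were not, and GSTU3 had almost no reads. In the array of GSTU19, GSTU21, GSTU22 and GSTU23, where GSTU20 lies between the members, GSTU19 and GSTU22 were called, GSTU23 was not, and GSTU21 was too low to test. GSTU24 and GSTU26 were called on either side of GSTU25. The 4 phi genes of the chromosome 1 array split into GSTF6 and GSTF7, both called, and GSTF4 and GSTF5, with log2 fold changes only for GSTF4 (-0.42). In all, 13 of the 28 members in arrays and 3 of the 10 standing alone were called, beside 18.3% called higher among all tested genes. The 6 members too low to test all lie in arrays, so the counts do not rest on like bases and are not compared.

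Among closest relatives by protein, some pairs had like differences and others did not. GSTF6 and GSTF7 (93.8% identical) had log2 fold changes of 0.93 and 0.89, and GSTF9 and GSTF10 (80% identical) had 1.13 and 0.90. GSTF2 and GSTF3 are 92.5% identical on different chromosomes and had 0.55 and -0.48, with Col-0 levels of 161 and 2.49 CPM. GSTU17 and GSTU18 (74.9% identical) had 1.52 and -0.11. GSTU13 and GSTU14 (79.3% identical), neither of them called, had -0.21 and 0.53, and GSTU24 and GSTU25 (79.4% identical) had 1.03 and 0.30. These differences between paired genes were not tested.

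**Figure D4:**
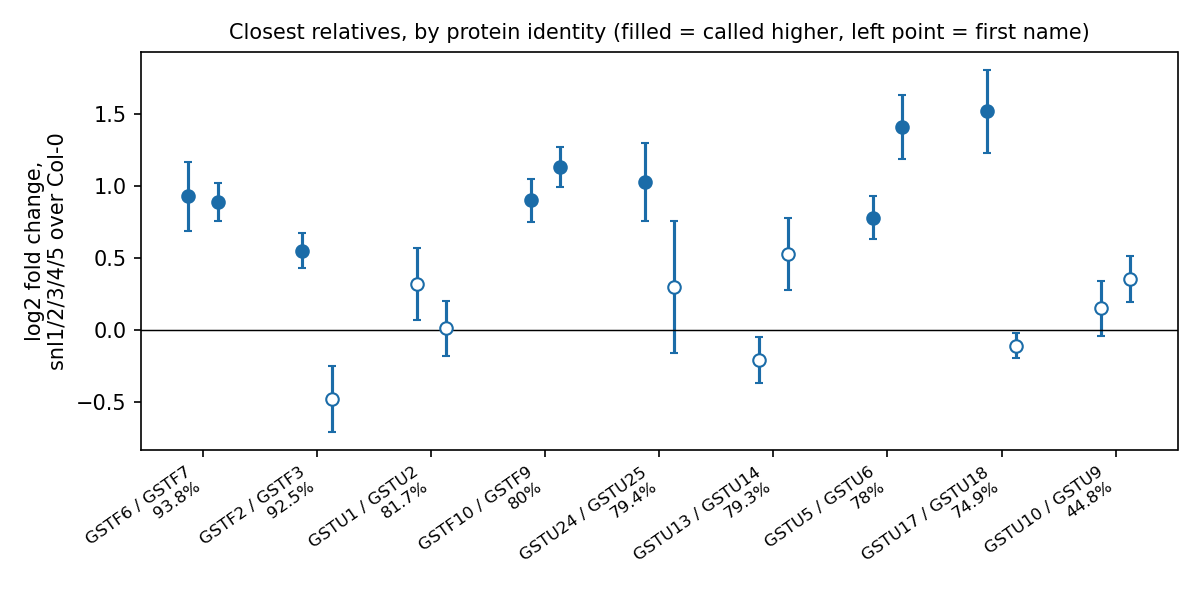
Fitted log2 fold change (mutant over Col-0) with its standard error for the 9 pairs of tested members that are each other's closest protein, ordered by percent identity from 93.8% to 44.8%. The left point of a pair is the first name and filled points were called higher. Both points lie close together for GSTF6 and GSTF7, and they lie on opposite sides of 0 for GSTF2 and GSTF3, for GSTU13 and GSTU14, and for GSTU17 and GSTU18.

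Reads can be hard to place in such a family. Stretches of 50 bases shared exactly with another member made up 9.41% of GSTF6 and 9.19% of GSTF7. They made up 2.46% of GSTF2 and 3.51% of GSTF3. Loci that overlap a member, such as GSTU17 and GSTU18 for each other, were left out of this count. No other member shared such a stretch with the loci that remained. At 95% identity over 100 bases, the search found no copy of a member outside loci that overlap it. The levels of GSTF2, GSTF3, GSTF6 and GSTF7 are therefore uncertain to that extent. GSTU17 and GSTU18 overlap on the same strand. GSTU10 overlaps AT1G74600 in the same way (41 to 66 reads a library), and GSTF8 overlaps AT2G47720, which had 0 reads in every library. Strand cannot place reads from such overlaps. Exons of GSTU2, GSTU6, GSTU7, GSTU10, GSTF2, GSTF4 and GSTF10 overlap genes on the other strand, and the library kit is directional but whether the counting used strand is not stated in the sources used here. The largest such neighbour is TOC159 (AT4G02510), opposite GSTF2, which was lower in the mutant at 405, 358 and 370 CPM beside 497, 494 and 500 CPM in Col-0. Reads from the stretch that TOC159 and GSTF2 share, a match of 403 bases, cannot be told apart if strand was not used.

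The 3 class members outside the selection were also higher or very low. GSTU20, which interacts with the jasmonate enzyme FIN219, read 44.6, 44.9 and 37 CPM in Col-0 and 95.7, 146 and 87 CPM in the mutant (2.6-fold, adjusted p = 0.00138). GSTF11, an enzyme of glucosinolate synthesis, read 1.52, 1.75 and 1.75 CPM in Col-0 and 7.89, 8.88 and 4.51 CPM in the mutant (4.25-fold, adjusted p = 0.00124). GSTF12, the anthocyanin carrier TT19, was not tested and stayed at or below 0.63 CPM.

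The smaller GST classes (zeta, theta, lambda and the dehydroascorbate reductases) showed 3 higher and 1 lower among 11 tested genes, with a median log2 fold change of 0.14. DHAR1, which regenerates ascorbate with glutathione, rose 1.6-fold from 123, 119 and 129 to 209, 218 and 166 CPM (adjusted p = 0.00227). GSTL1 of the lambda class rose 3.8-fold from 1.11 to 4.27 CPM on average (adjusted p = 0.00949). GSTT2 of the theta class fell 1.31-fold (adjusted p = 0.0118, and 0.0576 without Col-0 replicate 1). The number of lower genes was then 0, and it was 2 without mutant replicate 3.

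Genes that make, reduce or break down glutathione moved both ways, with 5 higher and 3 lower among 11 tested. GSH1, the enzyme of the rate-limiting step of glutathione synthesis, read 195, 205 and 189 CPM in Col-0 and 258, 272 and 289 CPM in the mutant (1.39-fold, adjusted p = 0.00215). GR1, a glutathione reductase, rose 1.43-fold (adjusted p = 0.00209). GGT4, which starts the breakdown of conjugates in the vacuole, fell 1.5-fold from 27.2, 27.3 and 30 to 20.3, 19.7 and 16.1 CPM (adjusted p = 0.00389).

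Glutathione peroxidase-like genes showed 3 higher and 1 lower among 7 tested, led by GPX6, which rose 1.68-fold (adjusted p = 0.00177). The calls of GPX2 (adjusted p = 0.0193) and GPX3 (adjusted p = 0.0375) were lost without Col-0 replicate 1, at 0.082 and 0.0819, and without Col-0 replicate 3, at 0.0625 and 0.121. The number of higher genes was then 1 in each case. GPX3 held its call in only 6 of 15 alternative fits. It was also lost without Col-0 replicate 2 (0.0821), mutant replicate 1 (0.0841) or mutant replicate 2 (0.0594), and by DESeq2 (0.106). The number of lower genes was 0 when any library other than mutant replicate 3 was left out.

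The ABCC transporters, which include the vacuolar pumps for glutathione conjugates, had 6 lower and 1 higher among 14 tested, 7 that were not called, and a median log2 fold change of -0.25. ABCC14 read 152, 154 and 153 CPM in Col-0 and 104, 104 and 109 CPM in the mutant, 1.45-fold lower (adjusted p = 0.000688). ABCC2, a vacuolar pump for glutathione conjugates and phytochelatins, was 1.35-fold lower (adjusted p = 0.00342), and ABCC12 was 1.44-fold lower (adjusted p = 0.00463). Without mutant replicate 2 the number of lower genes was 3. The call of ABCC1, 1 of the 6 lower genes, held in only 7 of 15 alternative fits.

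TGA factors and their partners showed 2 higher and 3 lower among 12 tested. The number of higher genes was 0 without Col-0 replicate 1 and 1 without Col-0 replicate 2, Col-0 replicate 3 or mutant replicate 1. SCL14, the partner through which TGA factors switch on detoxification genes, fell 1.49-fold from 69.3, 58.8 and 66.8 to 46.8, 38.9 and 44.9 CPM (adjusted p = 0.00309). TGA4 fell 1.57-fold (adjusted p = 0.00314). GRX480, a glutaredoxin that binds TGA factors, fell 2.38-fold from a low level (adjusted p = 0.0165, 0.0726 without Col-0 replicate 1 and 0.0686 without mutant replicate 2).

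Other genes of the response to xenobiotics and electrophiles had 2 higher and 4 lower among 14 tested, with a median log2 fold change of -0.31. The number of higher genes was 1 without Col-0 replicate 1 or replicate 2. CYP81D11, a cytochrome P450 that is a classic target of TGA factors and SCL14, fell 3.13-fold from a mean of 23.2 to 7.5 CPM (adjusted p = 0.00231). DTX1, a toxin efflux carrier, fell 3.12-fold (adjusted p = 0.00297), and UGT74E2, a glucosyltransferase for the auxin indole-3-butyric acid, fell 3.88-fold from about 1.04 CPM (adjusted p = 0.0042). Of camalexin synthesis, CYP79B2, which makes indole-3-acetaldoxime, was 2.24-fold higher (adjusted p = 0.00449), CYP71A13 was 2.98-fold lower (adjusted p = 0.00713), and PAD3 and CYP71A12 were too low to test. Without mutant replicate 3 the number of higher genes of this list was 3.

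**Figure D5:**
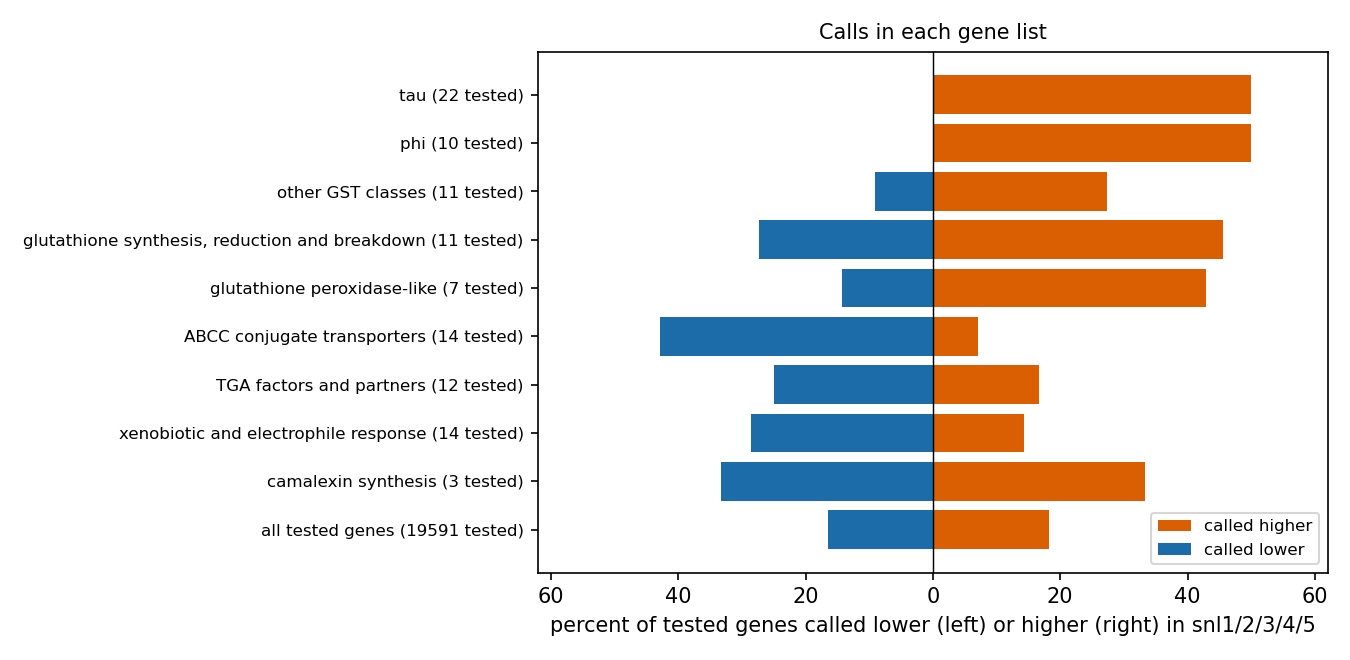
Share of the tested genes of each list called higher (right) or lower (left) in the mutant, in percent, with all tested genes at the bottom. Tau and phi genes, which were selected on this contrast, have 50% higher and 0% lower, and the ABCC list has 42.9% lower and 7.14% higher, beside 18.3% and 16.5% for all tested genes.

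Of the 38 members, the authors' deposited table of higher genes, which holds changes of at least 1 on the log2 scale, lists 8, and their table of lower genes lists 0. The 8 are the members called here at or above 2-fold. For GSTU8 the authors' deposited table gives a log2 fold change of 1.54, and for GSTF9 1.12.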

How the data were processed

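For each of 3 Col-0 and 3 snl1/2/3/4/5 libraries the authors deposited a table of raw counts, whole numbers of reads per locus. The tools, per the submitters' processing notes, included TopHat, HTSeq, edgeR and cutadapt 1.4, and the genome was TAIR10. Tool roles and settings, not given in the sources used here, could not be checked. Gene tables deposited by the authors give the log2 fold change with its p-value and FDR for called genes, and 24 columns of those tables that hold values per library were not used. Titles and genotype labels put each sample in its group.

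Genes were kept with filterByExpr (minimum count 10, minimum total 15), scaled by TMM and tested with edgeR 4.0.16 (glmQLFit, then glmQLFTest for genotype) under R 4.3.3, with Benjamini-Hochberg adjustment over 19591 genes and a threshold of 0.05. The fit was also run on simulated counts with far fewer changed genes than were called here, so that run does not check these calls. CPM uses TMM-scaled totals, a fold is 2 raised to the fitted log2 fold change, and the standard error is the log2 fold change divided by the square root of F. The coefficient of variation is the square root of edgeR's dispersion. Level per kb uses the union of RefSeq exons. Precision is limited by 3 libraries a group.

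The members, the gene lists and the rule for naming genes were chosen with earlier results of these data known. Values per library are given for called members at least 2-fold changed, the 3 highest of each class per kb, and members whose groups do not overlap without a call, with up to 3 called genes per other list. GSTF2, GSTF6, GSTF7, GSTU16 and GSTU26 are called members given beyond that rule, as are libraries of some other genes, chosen after their values were seen. Symbols, exons, promoters and coding sequences come from RefSeq (TAIR10.1), which matched all 38 members by locus tag. The counts carry no coordinates. Proteins were translated from the coding sequences and aligned end to end with Biopython 1.88, and copies were searched with BLAST+ 2.17.0 (95% identity over 100 bases). Alternatives were other scalings and filters, limma-voom (limma 3.58.1), DESeq2 1.42.0, a test against a 1.5-fold change, a replicate block, no organelle genes and each library left out.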

Additional observations from a re-analysis of the deposited data

How the results depend on the processing

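All 16 called members kept a positive log2 fold change under each of the 15 alternatives, and 14 stayed called in every one except the test against a 1.5-fold change. That test kept 3 tau genes higher (GSTU6, GSTU8 and GSTU27) and 1 phi gene (GSTF9), beside 528 higher and 229 lower over all tested genes. The exceptions were GSTU24 and GSTF6, whose calls also ended when single libraries were left out. Over the 6 fits that each leave out 1 library, the higher tau genes numbered 10 to 12, the higher phi genes 4 to 6, the lower phi genes 0 to 1, and the lower tau genes 0. Over all tested genes these fits gave 2290 to 3806 higher and 1757 to 3511 lower, fewest without Col-0 replicate 1 (2290 higher, 1757 lower), and 1893 lower without mutant replicate 2. Where a group then holds 2 libraries the spread is shared over the fit.

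Deviations of same-numbered libraries had r = 0.00214, 0.157 and -0.0557, beside -0.133 to 0.133 for libraries of unlike number. Such low values over few libraries cannot tell whether the numbers pair the samples. The replicate block left 11 tau and 5 phi genes higher, with 3106 higher and 2768 lower over all tested genes. Under the block the TGA list had 1 higher gene in place of 2 (TGA9 then had an adjusted p of 0.0522), and the calls of ABCC1 (0.0807) and GPX3 (0.0629) ended. Of the counts for the other gene lists, 32 of 210 moved by more than 1.5 times, 13 of them under the 1.5-fold test. The cause of these shifts was not tested. Members with 20 or fewer reads over all libraries could not be compared at this depth.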
